A study of Mus musculus with 4 samples.

Results

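Globins and a few genes particular to red cells were followed across 4 arrays of RNA labelled as Neuro2a (N2a), a mouse neuroblastoma line. The genes are the adult beta globins Hbb-b1 and Hbb-b2, the adult alpha globins Hba-a1 and Hba-a2, the embryonic globins Hba-x, Hbb-y and Hbb-bh1, the haem synthesis gene Alas2 and the anion exchanger gene Slc4a1. They are 9 of the 24171 genes measured, with 12 of the 44170 targets (a target is a transcript covered by a set of 3 probes). They were chosen by symbol with their levels on these same arrays already known, so levels and changes of these genes are given as a description, with no test read from them. Per the labels, 2 arrays (replicates 1 and 2) held total RNA of cells transfected with a scramble siRNA, labelled as control, and 2 (replicates 1 and 2) held RNA from cells given an siRNA to Men1, labelled as Men1 knockdown. Both groups were grown in the same medium with serum. For the siRNA sequence, its dose and the time after transfection, nothing is given in the labels. No label says that the replicates were separate cultures, so the spread between them may be technical.

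Haemoglobin is a tetramer of alpha-type and beta-type globin chains, each holding a haem group. The alpha-type genes lie in a cluster on mouse chromosome 11 and the beta-type genes in a cluster on chromosome 7. In each cluster the embryonic genes are used by primitive red cells of the yolk sac, and the adult genes by definitive red cells of fetal liver and bone marrow. Alas2 encodes the red cell form of the first enzyme of haem synthesis, and Slc4a1 encodes band 3, the chloride and bicarbonate exchanger of the red cell membrane. Erythroid genes are commonly controlled by Gata1, which binds GATA motifs, by Klf1, which binds CACCC motifs, and by general CCAAT and TATA elements.

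The promoters of an adult globin, of embryonic globins and of Alas2 are shown, for the 150 bases before the start of the gene, because these genes differ in level on the arrays and are known to share erythroid motifs. RefSeq entries on GRCm38.p6 matched 5 of the 9 genes; Hbb-b1, Hbb-b2, Hbb-bh1 and Slc4a1 were not matched. Capitals mark 4 motifs searched on both strands, the letters GATAA and CACCC and the letters CCAAT and TATAA, so TTATC and GGGTG are GATAA and CACCC on the other strand. The marked motifs share no letters with each other, and in Alas2 the GGGTG copies abut.
Hba-a1 (adult, chr11:32283522-32283671, plus strand): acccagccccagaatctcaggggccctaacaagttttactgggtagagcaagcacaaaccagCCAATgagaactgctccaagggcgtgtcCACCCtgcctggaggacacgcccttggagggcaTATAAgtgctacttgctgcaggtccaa
Hba-x (embryonic, chr11:32276450-32276599, plus strand): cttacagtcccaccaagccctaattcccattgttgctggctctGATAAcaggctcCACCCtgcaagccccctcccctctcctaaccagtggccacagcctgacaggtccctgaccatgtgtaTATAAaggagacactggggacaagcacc
Hbb-y (embryonic, chr7:103853208-103853357, minus strand): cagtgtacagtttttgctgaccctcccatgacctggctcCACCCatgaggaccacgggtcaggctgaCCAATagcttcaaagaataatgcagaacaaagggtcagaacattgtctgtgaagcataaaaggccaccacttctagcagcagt
Alas2 (chrX:150547267-150547416, plus strand): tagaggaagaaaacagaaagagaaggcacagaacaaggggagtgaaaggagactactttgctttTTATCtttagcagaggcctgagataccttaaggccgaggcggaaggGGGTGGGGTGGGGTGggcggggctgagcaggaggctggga

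The adult alpha promoter has CCAAT 88 bases, CACCC 60 bases and TATAA 27 bases before the start, and no GATAA in the window. Hba-a2 holds the same letters shifted by 3 bases: over RefSeq's whole window of 300 bases, 297 of 297 bases compared at that shift were identical. The embryonic Hba-x has GATAA at 107 bases, CACCC at 95 and TATAA at 28, and no CCAAT. Hbb-y has CACCC at 111 bases and CCAAT at 83, without GATAA or TATAA. In Alas2 GATAA lies at 86 bases and CACCC at 40, 35 and 30 bases, all on the other strand. Among 32851 promoters of the same length, GATAA was present in 13.3%, CACCC in 37.4%, CCAAT in 24.5% and TATAA in 14.2%. A match describes letters only and is no evidence of binding.

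The 4 arrays were close in overall level, with medians of 145.9 to 151.2, and 5000 random probes read 42.8 to 52.3, which is the background level. The values are linear intensities that the authors computed with the robust multi-array average (RMA). A target at 100 or more was counted as well above background: the series' value table lists 20620 targets, the same ones that reach 100 on all arrays. Arrays of a group correlated across targets with r = 0.948 and 0.945, and arrays of different groups with r from 0.901 to 0.934. The targeted gene, Men1, read 6985 and 6222 after scramble siRNA and 2764 and 4109 after Men1 siRNA at its brightest target. The log2 change was −0.97 ± 0.35 (SE with n = 2 per group), and it did not pass in limma (adjusted p = 0.314). As the mean of all targets of Men1 the log2 change was −0.58. Of the 11 neuroblast markers measured, the neuronal tubulin gene Tubb3 read 34397 to 40661 on all arrays. Of the defining markers of this lineage, Th, the first enzyme of catecholamine synthesis, read 95.0 to 141.6.

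**Figure D1:**
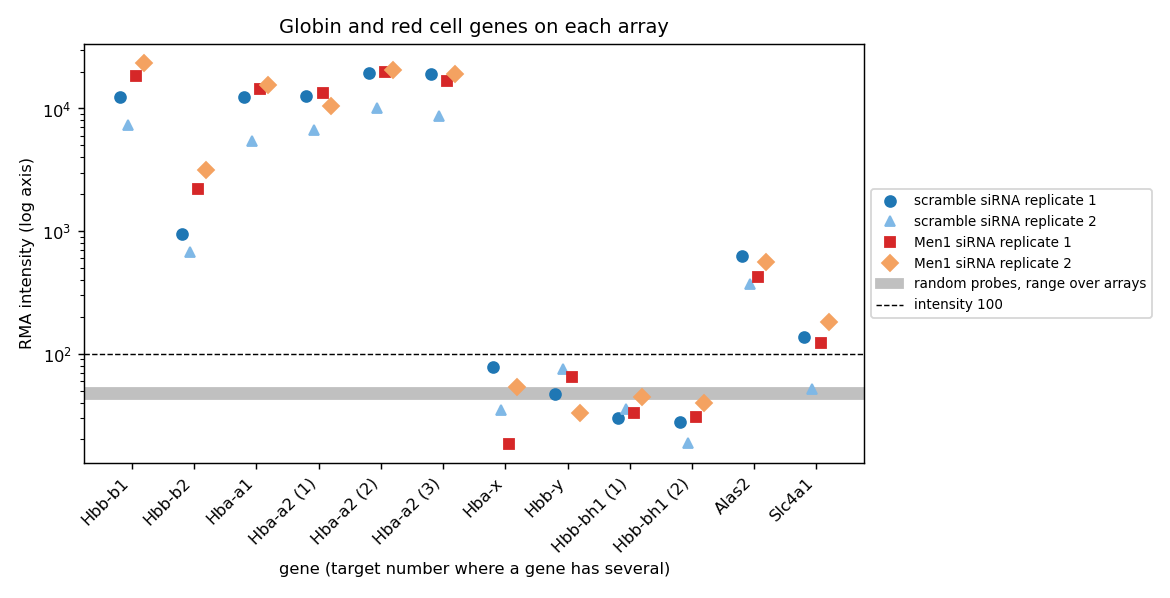
RMA intensity (log axis) of each of the 12 targets of the globin and red cell genes on each of the 4 arrays, 1 point per array. Targets of the 4 adult globin genes sit between 677 and 23472, and the 4 targets of the embryonic globins sit between 18.5 and 77.3, around the grey band of the random probes (42.8 to 52.3) and under the dashed line at 100.

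Transcripts of the adult alpha globins and of Hbb-b1 were read at high intensity in all 4 arrays of this neuronal line. Hbb-b2 read 677 to 3156, and embryonic globin transcripts were at background. The targets of the adult alpha genes and of Hbb-b1 lay at or above the 96.5th percentile of all targets on each array. All 4 adult globin genes were higher on both Men1 siRNA arrays than on both scramble siRNA arrays at their brightest targets. The ratios were 1.43 to 3.29, and none passed the test. Of all genes, 25.8% were likewise higher without overlap of the groups. The globins were chosen with these values known, and targets of the paralogs overlap on MM9, so they are not 4 separate observations. At the other targets of Hba-a2 the groups overlapped. Alas2 was present at a middle level with equal group means, and Slc4a1 was near the limit of 100. A level on an array also holds the strength of the probes, so the sentences below set a gene only against itself on another array or against background.

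Hbb-b1, a major adult beta globin (gene ID 15129, chr7:110961171-110962384 on MM9), read 12325 and 7273 on scramble siRNA replicates 1 and 2, and 18273 and 23472 on Men1 siRNA replicates 1 and 2. That is 170 to 449 times the random probes of the same array. Both Men1 siRNA arrays were above both scramble siRNA arrays, and scramble siRNA replicate 2 was the lowest. The mean went from 9799 ± 3572 to 20873 ± 3676 (SD, n = 2), a log2 change of 1.13 ± 0.39 (SE; limma adjusted p = 0.303).

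Hbb-b2, the minor adult beta globin (gene ID 15130, chr7:110961037-110962417), read 951 and 677 after scramble siRNA and 2207 and 3156 after Men1 siRNA, in the same order of replicates. It had the largest change of the 9 genes, and again the groups did not overlap. The log2 change was 1.72 ± 0.37 (SE with n = 2 per group, limma adjusted p = 0.156), or 3.29 times the scramble level. Its percentile among the targets of an array was 81.9 and 76.3 after scramble siRNA and 90.8 and 93.7 after Men1 siRNA. On MM9 the Hbb-b1 target lies wholly within the Hbb-b2 target, with 1214 bases shared. These are near-identical paralogs and the files hold no probe sequences, so how far the probes tell them apart is uncertain.

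The alpha globin gene Hba-a1 (gene ID 15122, chr11:32183691-32184486) read 12491 and 5462 after scramble siRNA and 14494 and 15453 after Men1 siRNA. Here scramble siRNA replicate 1 was close to the Men1 siRNA arrays and replicate 2 stood below all the others. The means were 8976 ± 4970 and 14974 ± 678 (SD, n = 2), and the log2 change was 0.86 ± 0.47 (SE; limma adjusted p = 0.466).

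Hba-a2 (gene ID 110257), like Hba-a1, codes for an adult alpha chain, and it has 3 targets. The brightest, chr11:32183703-32184394, read 19627 and 10150 after scramble siRNA and 19920 and 20550 after Men1 siRNA, and its log2 change was 0.52 ± 0.42 (SE with n = 2 per group, limma adjusted p = 0.613). The target at chr11:32196520-32197211 read 19065 and 8686, then 16612 and 19207. The one at chr11:32183671-32184493 read 12743 and 6650, then 13319 and 10472. For those other targets the groups overlapped, with ratios of 1.39 and 1.28, so only the brightest target of this gene separates the groups, and by a small step. The Hba-a1 target shares 796 and 692 bases with 2 of the Hba-a2 targets and 0 with the third, and the paralogs cannot be held apart with certainty here either.

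The embryonic globins gave a different picture: 16 of 16 values were under 100, and they ran from 18.5 to 77.3. Hba-x, the embryonic alpha-type (zeta) globin (gene ID 15126, chr11:32176629-32178115), read 77.3 and 34.6 after scramble siRNA and 18.5 and 53.6 after Men1 siRNA. Hbb-y, the embryonic epsilon-type beta globin (gene ID 15135, chr7:111000265-111001698), read 46.7 and 74.4, then 65.0 and 32.8. Hbb-bh1, an embryonic beta-type globin (gene ID 15132), read 30.2 and 35.2, then 32.9 and 44.3 at chr7:110990154-110991651. At its other target, chr7:110990854-110991676, it read 27.6 and 18.8, then 30.7 and 39.7. None of these was well above background on any array, so no change is read from them.

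Alas2 (gene ID 11656, chrX:146981959-147005165) read 626 and 367 after scramble siRNA and 421 and 563 after Men1 siRNA. The groups overlapped and their means were 496.5 ± 182.9 and 491.9 ± 100.1 (SD, n = 2), a log2 change of 0.02 ± 0.40 (SE). Slc4a1 (gene ID 20533, chr11:102210138-102226435) read 138.0 and 51.9 after scramble siRNA and 121.7 and 180.1 after Men1 siRNA. It was above 100 on 3 of 4 arrays, the groups overlapped, and the log2 change was 0.81 ± 0.55 (SE). Neither gene therefore separated the groups, which the adult globins did at their brightest targets. For Slc4a1 the overlap rests on 138.0 against 121.7, close to the limit of 100, and other targets of Hba-a2 overlapped as well.

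Over all genes, 94 passed the threshold in limma (0.389%), 9 higher with Men1 siRNA (0.0372%) and 85 lower (0.352%). Of the 9 globin and red cell genes 0 passed, with 2 (Hbb-b1 and Hbb-b2) at an unadjusted p under 0.05, where 3435 of all genes stood. The groups did not overlap, after Men1 siRNA higher, for 4 of the 9 genes, against 25.8% of all genes. In the opposite direction they did not overlap for 0 of the 9, against 21.7% of all genes. Since the genes were chosen with these values known, nothing is read from the counts. The median log2 change of the 9 genes was 0.52 and that of all genes 0.06, and 54.5% of all genes were positive. With 2 arrays a side, the smallest two-sided p of an exact permutation test is 0.333, so none is given.

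**Figure D2:**
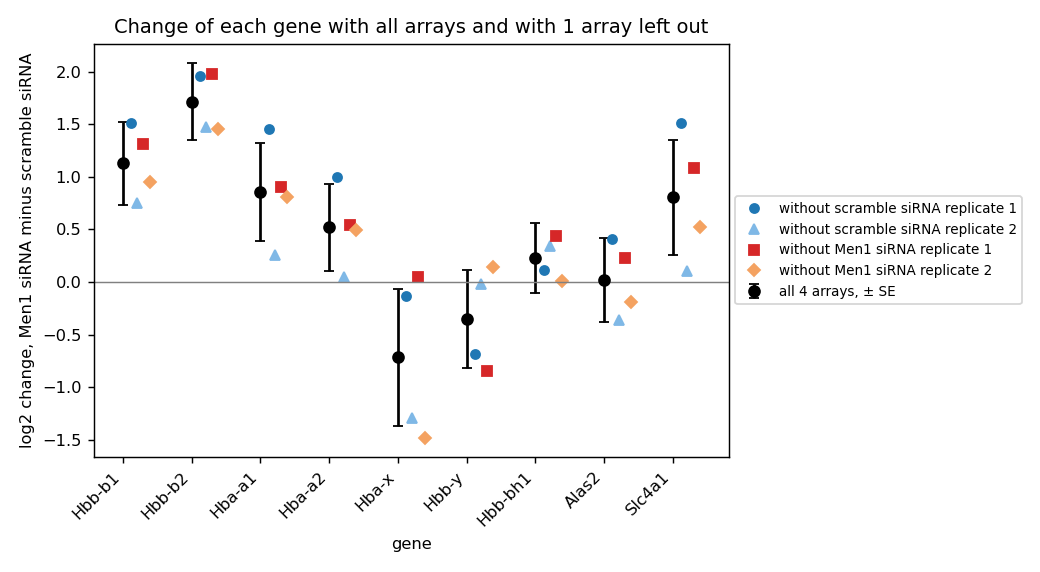
Log2 change (Men1 siRNA minus scramble siRNA) of each gene with all 4 arrays (black, bars are ± SE of the limma fit) and with 1 array left out (coloured). Leaving out scramble siRNA replicate 2 brings Hba-a1 to 0.26 and Hba-a2 to 0.04, while Hbb-b1 stays at 0.75 and Hbb-b2 at 1.47; the points of Hba-x, Hbb-y and Hbb-bh1 come from values under 100 on all arrays and show no change in level.

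Much of the difference in the alpha genes came with 1 array. Without scramble siRNA replicate 2 the log2 change was 0.75 for Hbb-b1, 1.47 for Hbb-b2, 0.26 for Hba-a1, 0.04 for Hba-a2, 0.10 for Slc4a1 and −0.36 for Alas2. Without scramble siRNA replicate 1 the same genes had 1.51, 1.96, 1.45, 1.00, 1.51 and 0.41. The beta genes were thus higher after Men1 siRNA against either scramble array, whereas the alpha genes were near level with replicate 1.

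Scramble siRNA replicate 2 was the lowest array for 6 of the 6 members that reached 100 on some array. Among the 19101 genes of all kinds that reached 100 on some array, it was the lowest for 19.2%. The 4 adult globins were higher after Men1 siRNA without overlap at their brightest targets, so their lowest array could only be a scramble array. The 19.2% covers genes of either direction and is no like reference for them, and targets of the paralogs overlap on MM9. That replicate 2 was the lowest was noticed after the values were seen. The authors' value table holds the same adult globin values with the scramble columns exchanged, so the low array stands there under replicate 1. Between the scramble arrays (replicate 1 minus replicate 2) the log2 difference was 0.76 for Hbb-b1, 0.49 for Hbb-b2, 1.19 for Hba-a1, 0.95 for Hba-a2, 0.77 for Alas2 and 1.41 for Slc4a1. Between the Men1 siRNA arrays it was −0.36, −0.52, −0.09, −0.04, −0.42 and −0.57. By these replicate numbers the Men1 siRNA difference had the opposite sign to the scramble difference in every case. With the scramble numbers exchanged, as in the value table, the signs would be the same, so nothing is read from them.

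For scale, 5494 genes had a mean intensity of at least 1000, and the median absolute difference between the scramble arrays was 0.28 among them, with a 90th percentile of 0.76. The scramble difference was smaller than that of Hba-a1 in 98.0% of these genes, of Hba-a2 in 94.9%, of Hbb-b1 in 89.9% and of Hbb-b2 in 75.0%. Alpha globin thus varied more between the scramble arrays than most genes of high intensity did. Between the Men1 siRNA arrays the alpha genes varied little: 21.3% of these genes had a smaller difference than Hba-a1 and 10.1% a smaller one than Hba-a2. The values for Hbb-b1 and Hbb-b2 were 68.5% and 84.0%.

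The adult genes were also set against the embryonic genes of the same array, whose targets were at background and so stand for a background level only. The mean log2 level of the 4 adult genes minus that of the 3 embryonic genes was 7.26 and 6.50 after scramble siRNA and 8.25 and 8.18 after Men1 siRNA. Its group means differed by 1.34, with a pooled SD of 0.38 (n = 2 per group). The adult mean alone differed by 1.06; the embryonic mean, which is subtracted, differed by −0.28 among values under 100, which is no measured change.

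Within an array the gap between the beta and the alpha genes was smaller after Men1 siRNA. The adult beta minus adult alpha log2 difference was −2.19 and −1.75 after scramble siRNA and −1.42 and −1.05 after Men1 siRNA, a change of 0.73 with a pooled SD of 0.29. Within the beta pair, Hbb-b2 minus Hbb-b1 was −3.70 and −3.42, then −3.05 and −2.89, a change of 0.59 with a pooled SD of 0.16. Within the alpha pair, Hba-a2 minus Hba-a1 was 0.65 and 0.89, then 0.46 and 0.41, a change of −0.34 with a pooled SD of 0.12. None of these differences overlapped between the groups, and each was described with no test. On MM9 the Hbb-b1 target lies within the Hbb-b2 target, with 1214 bases shared. The Hba-a2 target used lies within the Hba-a1 target, with 692 bases shared. How far the differences within a pair tell the paralogs apart is therefore uncertain. How often such differences separate the groups for other genes was not measured.

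**Figure D3:**
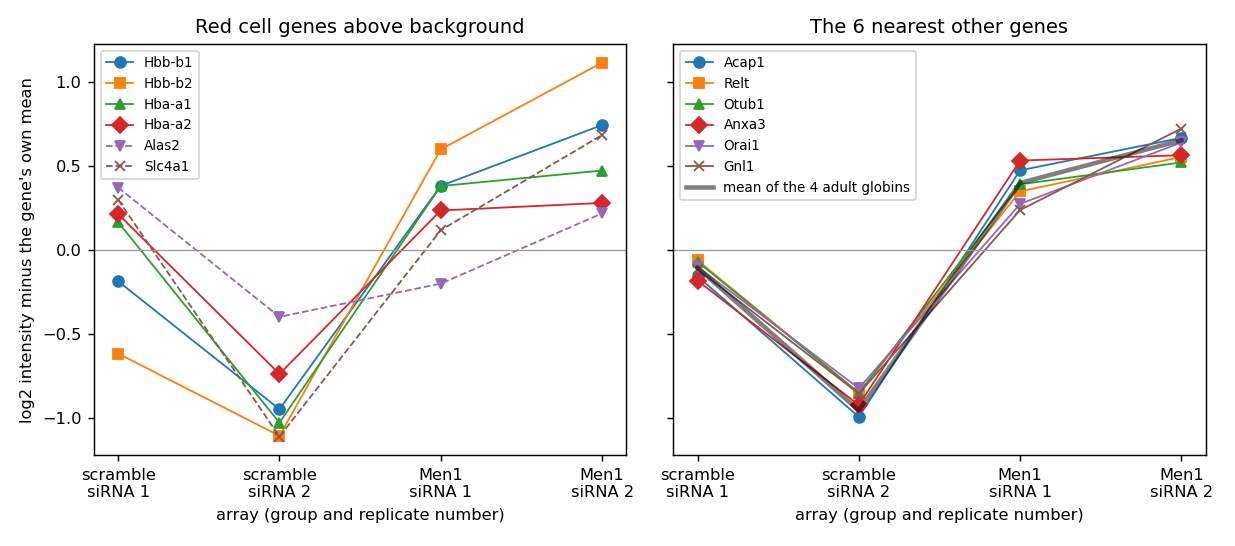
Log2 intensity minus the gene's own mean over the 4 arrays, for the 6 globin and red cell genes above background (left) and for the 6 other genes nearest to the mean adult globin profile (right, with that mean in grey). Lines only join the points of a gene; the 4 adult globins are lowest on scramble siRNA replicate 2, and Hbb-b1 lies nearest to their mean while Alas2 departs from it.

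The adult globin profile over the 4 arrays was not shared by all members. The Euclidean distance of a gene's centred log2 profile from the mean of the 4 adult globins was 0.123 for Hbb-b1, 0.334 for Hba-a1, 0.519 for Slc4a1, 0.561 for Hba-a2, 0.733 for Hbb-b2 and 1.04 for Alas2. The adult genes are themselves part of that mean. Among 11136 other named genes at 100 or more on all arrays, the nearest were Acap1 (0.0994), Relt (0.159), Otub1 (0.171), Anxa3 (0.180), Orai1 (0.182) and Gnl1 (0.202). Acap1 encodes a GTPase-activating protein of endosomes, Relt a receptor of the tumour necrosis factor receptor family, Otub1 a deubiquitinating enzyme and Orai1 the pore of a calcium channel. Acap1 read 675 and 378 after scramble siRNA and 1044 and 1194 after Men1 siRNA. With 4 arrays, this closeness describes these arrays alone.

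Genes that accompany globin in red cells were taken from lists by function. For other globins of the alpha and beta clusters 8 symbols were looked up, which need not be 8 distinct genes, and 1 was found. This gene, Hbb-bh2, read 122.5 and 61.2 after scramble siRNA and 92.5 and 150.9 after Men1 siRNA. The globins of other cells were 4, all positive and none past the threshold, with a median log2 change of 0.80. As the mean of all targets that median was 0.25, with Mb at −0.35, and in the value table it was 0.36. Ngb, the globin of neurons, read 101.1 and 68.6, then 183.9 and 236.5, and its log2 change was 1.32 ± 0.36 (SE with n = 2 per group, limma adjusted p = 0.223). Cygb, a globin of many tissues, had 0.01 ± 0.32, and Mb, the oxygen store of muscle, 0.71 ± 0.60. Adgb was under 100 on all arrays.

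Of 14 haem synthesis genes 0 rose and 0 fell, 7 were positive and 7 negative, and the median was 0.04 (−0.21 without scramble siRNA replicate 1, 0.23 without scramble siRNA replicate 2 and −0.018 after cyclic loess). Alas1, the form of the first enzyme used outside red cells, read 4478 and 3874 after scramble siRNA and 2780 and 2705 after Men1 siRNA, and had −0.60 ± 0.31 on the log2 scale (SE; limma adjusted p = 0.443). That value holds for its brighter target only, and the mean of its targets gave 0.38. The mitochondrial transporter gene Abcb10, which was under 100 on both scramble arrays, had a level at least 1.54-fold higher (limma adjusted p = 0.296, not past the threshold). Slc25a38, the mitochondrial glycine carrier of haem synthesis, had 0.56 ± 0.32, Tmem14c, a porphyrin transporter gene, −0.44 ± 0.31 and Abcb6 0.17 ± 0.41. Fech, the enzyme that inserts iron, read 687 and 1057, then 1051 and 857.

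Of 13 measured erythroid transcription factor genes 0 passed, 7 were positive and the median was 0.43. That median has no settled sign: it was −0.087 with the filter on dim genes or as the mean of all targets, and 0.023 without Men1 siRNA replicate 2. The defining factors were near background: Gata1 read 71.9 and 55.5 after scramble siRNA and 35.7 and 66.5 after Men1 siRNA, and Klf1 23.8 and 64.5, then 107.9 and 93.6. Nfe2, with both scramble arrays under 100, was at least 1.10-fold higher, and Tal1 had 1.13 ± 0.43 (SE; limma adjusted p = 0.328). Myb, which keeps progenitors dividing, had −2.05 ± 0.58 (limma adjusted p = 0.234). Of factors not limited to red cells, Ldb1 had −0.49 ± 0.32, Lmo2 −0.09 ± 0.31 and Bcl11a, a repressor of embryonic and fetal globin also used by neurons, 0.61 ± 0.40.

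Of 19 measured genes of the red cell membrane and its skeleton 0 passed, 12 were positive and the median was 0.15 (0.47 without scramble siRNA replicate 2 and 0.62 in the value table). Epb42, Rhag and Kel, all particular to red cells, and Cldn13 were under 100 on all arrays. Of the skeleton genes that neurons also use, Dmtn read 4392 and 6233, then 8725 and 7346 (log2 change 0.61 ± 0.35), and Add2 had 0.76 ± 0.31. Sptb had 0.91 ± 0.33 and Epb41 0.32 ± 0.33. Rhd was at least 1.63-fold higher and the urea transporter gene Slc14a1 at least 6.76-fold lower, neither passing (limma adjusted p = 0.181 and 0.208). Scramble siRNA replicates 1 and 2 read 286 and 1594 for Slc14a1, so its size is uncertain.

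Of 17 measured genes of red cell maturation and enzymes 0 passed, 14 were positive and the median was 0.40. Hemgn, a nuclear protein gene of red cell precursors, read 33.2 to 80.0, under 100 on all arrays. Car1, a carbonic anhydrase of red cells, was also under 100 on all arrays (46.7 and 31.9, then 83.9 and 89.7). Car2, found in red cells, glia and many epithelia, read 2961 and 3020 after scramble siRNA and 673 and 1096 after Men1 siRNA, and had −1.80 ± 0.37 on the log2 scale (SE; limma adjusted p = 0.143). Alox15, a lipoxygenase that acts on organelle membranes of reticulocytes, read 7662 and 753, then 110.7 and 45.3 (limma adjusted p = 0.159). Prdx2, Bnip3l and Glrx5, which most cells express, had −0.06, 0.10 and 0.09.

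Iron handling was measured with 14 genes, of which 1 fell and 0 rose, with a median of 0.06 (0.18 without scramble siRNA replicate 2). Steap3, the endosomal iron reductase that red cell precursors need, read 3105 and 3427 after scramble siRNA and 245 and 289 after Men1 siRNA. It fell by 3.62 ± 0.31 on the log2 scale (SE, n = 2 per group; limma adjusted p = 0.0346), and with any 1 array left out it no longer passed (adjusted p from 0.0960 to 0.256). Its sign was opposite to that of the adult globins. The ferritin chains Fth1 and Ftl1 had 0.02 ± 0.31 and 0.10 ± 0.31, and Hmox2 −0.02 ± 0.31. Slc11a2, the iron importer of endosomes, had 0.74 ± 0.38 and Ncoa4, the ferritin receptor of autophagy, 0.59 ± 0.34. Tfrc, the transferrin receptor, read 397 and 1014, then 1078 and 903.

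**Figure D4:**
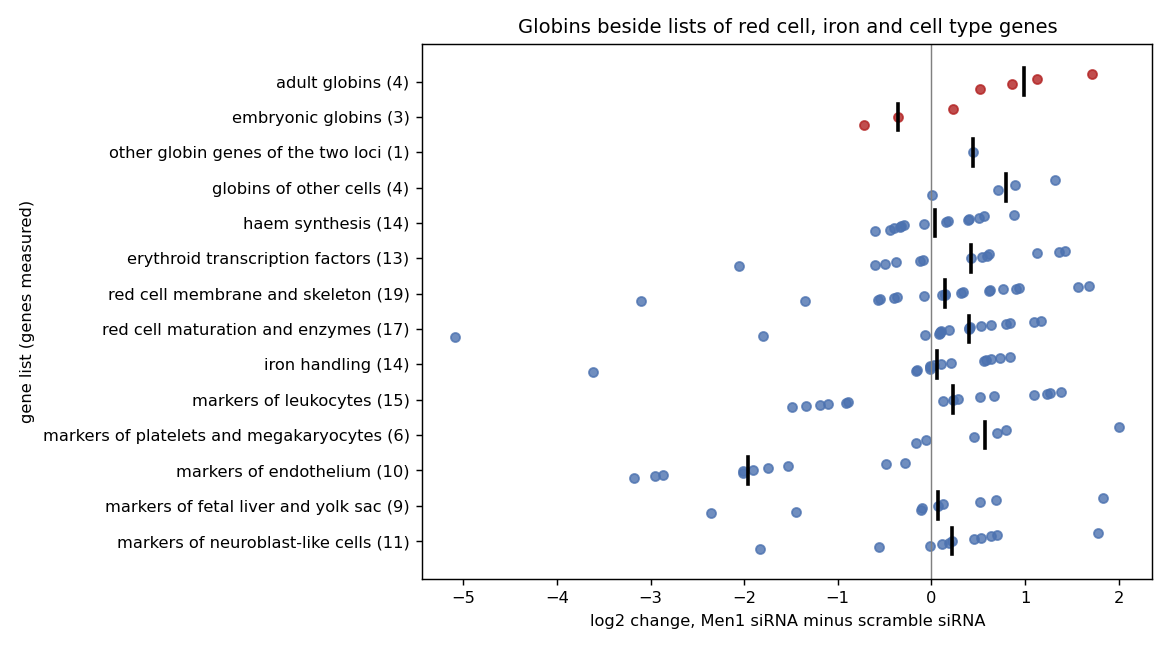
Log2 change (Men1 siRNA minus scramble siRNA) of each measured gene of the adult and embryonic globins (red) and of each comparison list (blue); the black bar is the median and the number in brackets the genes measured. The 4 adult globins lie to the right of 0 and the 10 endothelial markers to the left, at a median of −1.96.

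Markers of other cells that travel with blood were set beside the globins. Of 15 leukocyte markers 0 passed and 9 were positive, with a median of 0.23 (0.0022 as the mean of all targets); their summed intensity was 18697 and 14837 after scramble siRNA and 11213 and 15570 after Men1 siRNA. The lysozyme gene Lyz2 read 5917 and 4526, then 2150 and 3541, while the neutrophil gene S100a8 had 1.38 ± 0.37. Laptm5 had −1.10 ± 0.36, Cd68 −1.19 ± 0.33 and Coro1a 0.67 ± 0.32. Ptprc, which encodes CD45, read 761 and 189, then 497 and 399. It was lowest on scramble siRNA replicate 2, as the adult globins were, but highest on scramble siRNA replicate 1, and its groups overlapped. Scramble siRNA replicate 2 was the lowest array for 4 of the 15 markers.

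Of 6 measured platelet and megakaryocyte markers 0 passed and 4 were positive, with a median of 0.58. The median ran from 0.11 without Men1 siRNA replicate 2 and 0.17 without scramble siRNA replicate 2 to 0.98 without scramble siRNA replicate 1, and was 0.15 in the value table or with the filter on dim genes. Their summed intensity was 1095 and 779 after scramble siRNA and 1010 and 1292 after Men1 siRNA, and 3 of the 5 that reached 100 on some array were lowest on scramble siRNA replicate 2. Itga2b read 383 and 160, then 266 and 436. The platelet chemokine genes were low: Ppbp was at least 1.07-fold higher (limma adjusted p = 0.0852) and Pf4 read 66.3 and 54.5, then 62.6 and 175.0. Gp9 was at least 1.22-fold higher and Treml1 had −0.16 ± 0.31.

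Of 10 endothelial markers 1 fell and 0 rose, all were negative and the median was −1.96. Their summed intensity was 11003 and 7390 after scramble siRNA and 2272 and 2376 after Men1 siRNA, the opposite direction to the adult globins. Scramble siRNA replicate 2 was the lowest array for 0 of the 10. For 9 of the 10 the groups did not overlap, lower after Men1 siRNA (21.7% of all genes). The lowest array of those 9 could only be a Men1 siRNA array. Emcn was at least 4.50-fold lower (limma adjusted p = 0.0452), with 515 and 392, then 59.9 and 63.7. It did not pass with any 1 array left out (adjusted p from 0.131 to 0.322), after cyclic loess (0.0510), quantile normalization (0.0528) or median centring (0.0545), or as the mean of its targets (0.207). Cdh5, the cadherin of endothelial junctions, had −3.18 ± 0.38 (limma adjusted p = 0.0521), Flt1 was at least 4.79-fold lower, and Tie1, Esam and Pecam1 had −2.02 ± 0.35, −1.90 ± 0.40 and −1.74 ± 0.54.

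Tissues that make embryonic blood were looked at through 9 measured markers of fetal liver and yolk sac, of which 0 passed, with 5 positive and a median of 0.07 (−0.15 without Men1 siRNA replicate 1, 0.40 without Men1 siRNA replicate 2 and 0.87 in the value table). Afp and Alb, the defining ones, were under 100 on all arrays. Ttr, made by liver and choroid plexus, read 1820 and 2556 after scramble siRNA and 2134 and 1906 after Men1 siRNA. Rbp4 had 1.83 ± 0.45 and Amn 0.07 ± 0.52, and Serpina1a was at least 2.08-fold lower. Apob was above 100 on scramble siRNA replicate 1 alone, with 140.7 and 70.2, then 40.1 and 33.3. Of the 11 neuroblast markers 0 passed and 8 were positive, with a median of 0.22 (0.11 without scramble siRNA replicate 1, 0.58 without scramble siRNA replicate 2). Stmn2 had 0.53 ± 0.32, Chga 0.64 ± 0.35 and Chgb 0.70 ± 0.31, Ret was at least 2.27-fold higher and Gata3 had −1.83 ± 0.40. The part of any other cell type in the globin values was not tested, and fewer cells of a type cannot be told apart from less RNA per cell on these arrays.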

How the data were processed

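RNA was measured on 4 single-colour arrays, 2 per group. Per the file headers, the authors deposited linear intensities, 1 per target, made with RMA; for scanner and background correction nothing is given in the labels. An Agilent array is named in the series text, while the labelling protocol and the file format are those of NimbleGen, and the files were read as NimbleGen. Symbols and MM9 positions came from the array annotation; of 24203 gene IDs, 21583 matched a RefSeq gene and 3302 symbols changed. A total of 44155 targets had 3 probes, and 1 control row of random probes was left out. For 10215 genes with several targets the brightest target by mean log2 intensity stood for the gene.

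Intensities were log2-transformed, with nothing added, and compared by limma 3.58.1 (lmFit, eBayes) under R 4.3.3, with no term but group, and Benjamini-Hochberg adjustment over 24171 genes at a threshold of 0.05. Where both arrays of a group were under 100, "at least" sets the brighter mean against 100 or the dim value if higher. Genes, lists and tests were chosen with earlier results of these data known. Named were all 9 members, Men1, list genes past the threshold, the 3 brightest and the 3 with the smallest p of each list, and the 6 nearest profiles; Gata1, Klf1, Epb42, Rhag, Kel, Cldn13, Hemgn, Fech, Tfrc, Ptprc, Afp, Alb and Th were added after their values were seen, and some genes are not reported here.

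On simulated data for Men1 siRNA against scramble siRNA (24171 genes, 5 runs, 200 genes changed in each) the test recovered 0% of changes of 1 and of 2 log2 units, 36% of changes of 4 and 63.2% of changes of 6, and 4 of 252 calls were of unchanged genes. The number of arrays limits the precision. Alternatives were the replicate block, each array left out, cyclic loess, quantile and median normalization, the value table, a filter on dim genes, other target rules, a pseudocount of 32 and a trended prior; a block with crossed numbers was added after the data were seen. Files were read in Python 3.11.15 with numpy 2.4.6 and pandas 2.3.3, and plots were drawn with matplotlib 3.10.9.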

Additional observations from a re-analysis of the deposited data

How the results depend on the processing

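The median log2 change of the 9 globin and red cell genes, 0.52, was positive under each alternative run, from 0.10 without scramble siRNA replicate 2 to 1.00 without scramble siRNA replicate 1. The change of the adult minus embryonic difference, 1.34, ran from 0.96 to 1.72 with 1 array left out and from 1.20 to 1.39 under the other alternatives. After cyclic loess, quantile normalization or median centring the 4 adult globins stayed positive, from 0.46 for Hba-a2 to 1.77 for Hbb-b2. The value table gives no such difference, since it lists no embryonic globin. Whether the replicate numbers pair the samples is not settled. The correlation across genes between the replicate differences of the groups was r = −0.17. Its sign depends on the scramble numbering, which is exchanged in the value table. In limma, 3435 genes stood at an unadjusted p under 0.05 with no block and 2693 with the replicate block. With the replicate block 69 genes passed in limma while Emcn did not (adjusted p = 0.0812) and Alox15 did (adjusted p = 0.0475), and the 9 globin and red cell genes had adjusted p from 0.271 to 0.992, none past the threshold; with crossed numbers as the block 0 passed (3980 at an unadjusted p under 0.05).

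The count of genes past the threshold, 94, was 0 with any 1 array left out (2105 to 3357 at an unadjusted p under 0.05), 418 in the value table, 193 with the filter on dim genes, 150 with each target alone, 252 with a pseudocount of 32 and 711 with a trended prior; the cause was not tested. The count of list genes past the threshold, 2, was 0 with any 1 array left out (25 to 30 at an unadjusted p under 0.05), 1 after cyclic loess, 1 after quantile normalization, 1 after median centring, 6 in the value table, 5 with the filter on dim genes, 5 with the pseudocount and 11 with the trended prior. Among comparison genes, signs turned for Alas1 (0.38) and Mb (−0.35) as the mean of all targets, for Mb with 1 array left out (−0.070 without Men1 siRNA replicate 2, up to 1.49) and for Hbb-bh2 with 1 array left out (−0.053 without scramble siRNA replicate 2, up to 0.95). Among the 9 genes, Alas2 turned to −0.36 without scramble siRNA replicate 2 and −0.19 without Men1 siRNA replicate 2, Hba-x to 0.052 without Men1 siRNA replicate 1 and Hbb-y to 0.14 without Men1 siRNA replicate 2. Of 524 values of single genes under alternatives, 8 differed in sign, 14 newly passed and 13 no longer passed. Of 155 list medians under alternatives, 9 differed in sign and 21 moved by 0.3 or more. With 2 arrays per group, differences of 2 log2 units or less are mostly missed, and values under 100 carry no order.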

Other observations

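The image name recorded inside the array file is that of the file itself for 1 of the 4 arrays, scramble siRNA replicate 1. For the other 3 arrays it differs, in both groups, and nothing in the labels explains it. The name recorded for Men1 siRNA replicate 1 is Si2_532 and that for Men1 siRNA replicate 2 is 2_532. Whether the Men1 siRNA replicate numbers are exchanged is therefore not settled, though the value table holds these arrays in the same order. In the authors' value table the scramble columns stand exchanged against the per-array files for 20617 of 20620 targets (equal within a relative tolerance of 0.0001). The low globin array is therefore replicate 2 in one source and replicate 1 in the other. Group means of the adult globins are the same from both sources.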
